A study of Drosophila melanogaster with 2 samples.

Results

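The binding of HLH3B was described at 10 genes of hemocyte specification, migration signals and blood cell products, out of 18164 annotated genes. The 10 genes were lozenge (lz), glial cells missing (gcm), gcm2, knot (kn), Pvf2, Pvf3, Pvr, prophenoloxidase 3 (PPO3), trol and Hemolectin (Hml), taken as a named list by their annotated symbols. The list was chosen with earlier results of these data known, so its counts are descriptions only. Peaks were placed in the gene body and in the 2000 bp upstream of its start, which is called the gene window here. The study was a chromatin immunoprecipitation sequencing (ChIP-seq) experiment on whole Drosophila melanogaster embryos of strain HLH3B-GFP, aged 8 to 24 hours. A transgene gave these embryos an HLH3B-eGFP fusion protein, which anti-GFP antibody pulled down from chromatin sonicated to 200 to 800 bp. The 2 biological replicates, both transgenic, form the only group, and the control was not analysed here. Hemocytes are a minority of the cells in a whole embryo, so strong binding in few cells and weak binding in many cells cannot be told apart, and the cell type in which a site was occupied is not known.

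HLH3B is the fly protein most like vertebrate Tal1, a basic helix-loop-helix (bHLH) factor of early blood and vascular development that binds E-box motifs with a partner bHLH protein and often acts beside GATA factors. Fly blood cells fall into plasmatocytes, which engulf debris and microbes, crystal cells, which carry the enzymes of melanization, and lamellocytes, which wrap parasites. The RUNX factor lz specifies crystal cells, and the transcription factors gcm and gcm2 act in plasmatocytes and in glia. The early B-cell factor kn acts in the larval lymph gland, the blood-forming organ, and in the formation of lamellocytes. Pvf2 and Pvf3 are ligands of the PDGF and VEGF type, and Pvr is their receptor tyrosine kinase, through which embryonic hemocytes migrate and survive. PPO3 is a prophenoloxidase of lamellocytes, trol encodes the basement membrane proteoglycan perlecan, and Hml is a clotting protein used as a plasmatocyte marker.

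The authors gave lists for 2 series-level sets, which join the replicates, and for each replicate. Each came as a thresholded list of sites and as a longer ranked list of candidates. The main set was the conservative series-level set, with 3846 sites among 89714 candidates. The other series-level set held 5812 sites, replicate 1 held 3992 and replicate 2 held 3508. All thresholded lists ended at an irreproducible discovery rate (IDR, the estimated share of peaks ranked this high whose rank does not repeat) of 0.01, and a candidate is described as called at an IDR of 0.05 or lower. The IDR in a replicate's own list belongs to that replicate, so it is not a measure of repetition between the 2 replicates. Peak signal is the authors' value on a scale that the labels do not give. It was lower in the replicate lists (median site signal of 75.5 and 74.5) than in the main set (139), so signals are set side by side only within a list or between the replicates. The depth of each library is unknown, and no value carries a counting interval. Summits of different lists within 100 bp of each other are described as 1 place.

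Of the 11 main-set sites in the gene windows, 8 lay in introns of Pvf3, Pvr and trol. The sequences of 7 of these are shown because they are stretches on which the binding pattern of these genes rests. Each is the 101 bp around the summit, read 5′ to 3′ on the strand of the gene from the RefSeq Release 6 reference, and is named by the distance of its summit from the gene start in the direction of transcription, or for Pvr from an internal start. Capitals mark matches on either strand to the E-box CANNTG or to a GATA motif. The GATA motif was searched as AGATAA or TGATAA, and also in the form that ends in G, which is AGATAG for the former and TGATAG for the latter. A sequence without capitals has no match.
Pvf3 33.8 kb, chr2L:7123815-7123915, minus strand: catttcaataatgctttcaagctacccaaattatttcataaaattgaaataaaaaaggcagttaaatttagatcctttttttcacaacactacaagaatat
Pvf3 22.4 kb, chr2L:7135216-7135316, minus strand: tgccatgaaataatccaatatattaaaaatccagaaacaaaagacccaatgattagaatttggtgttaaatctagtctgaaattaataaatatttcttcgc
Pvf3 9.40 kb, chr2L:7148250-7148350, minus strand: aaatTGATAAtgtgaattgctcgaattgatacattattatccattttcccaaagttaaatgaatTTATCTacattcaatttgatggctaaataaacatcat
Pvf3 2.66 kb, chr2L:7154984-7155084, minus strand: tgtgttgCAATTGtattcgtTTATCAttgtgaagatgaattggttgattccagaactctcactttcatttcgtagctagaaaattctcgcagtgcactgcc
Pvr 834 bp past its internal start, chr2L:8229793-8229893, minus strand: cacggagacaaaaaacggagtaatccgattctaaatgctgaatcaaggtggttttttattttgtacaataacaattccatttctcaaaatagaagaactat
trol 11.3 kb, chrX:2534031-2534131, minus strand: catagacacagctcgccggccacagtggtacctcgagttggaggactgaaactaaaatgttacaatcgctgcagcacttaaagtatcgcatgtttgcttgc
trol 9.06 kb, chrX:2536313-2536413, minus strand: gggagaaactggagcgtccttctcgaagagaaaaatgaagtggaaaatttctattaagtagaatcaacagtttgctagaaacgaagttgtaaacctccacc

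Of these 7 sequences, 2 held a match, both in Pvf3. The site at 9.40 kb held 2 GATA words and no E-box, and that at 2.66 kb held an E-box and a GATA word. The 7 sequences differed in base composition, from 24.8% G and C at 9.40 and 33.8 kb in Pvf3 to 48.5% at 11.3 kb in trol.

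In the main set 5 of the 10 genes had a site in their window, namely kn, Pvf3, Pvr, PPO3 and trol, against 20.3% of all annotated genes. This share, like the other shares of all genes here, includes noncoding RNA genes, among them 481 single microRNA product records. The same 5 genes had a site in the other series-level set, where 27.3% of all genes did. Replicate 1 had sites in 4 of the genes, all of these but Pvr (20.7% of all genes), and replicate 2 in 6, all of these and lz (19.7%). Long genes have more room for a site, and the share of all genes with a main-set site was 16.7% under 10 kb, 45.0% from 10 to 30 kb and 55.1% at 30 kb or longer. Of the listed genes, 1 of 3 under 10 kb had a site (PPO3), 1 of 4 from 10 to 30 kb (Pvr) and 3 of 3 at 30 kb or longer (kn, Pvf3 and trol).

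Called candidates reached further genes. In the main candidate list 6 of the 10 genes held one, the same 5 and lz (25.5% of all genes). In the other series-level list 7 did, with Pvf2 added (34.5%). Replicate 1 had called candidates in 5 genes, namely gcm2, kn, Pvf3, PPO3 and trol (27.7%), and replicate 2 in 7, with Hml and without gcm2 and Pvf2 (22.9%). Over the 4 lists, gcm was the 1 gene with no called candidate. The plot of the strongest candidates shows the 10 genes side by side.

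**Figure D1:**
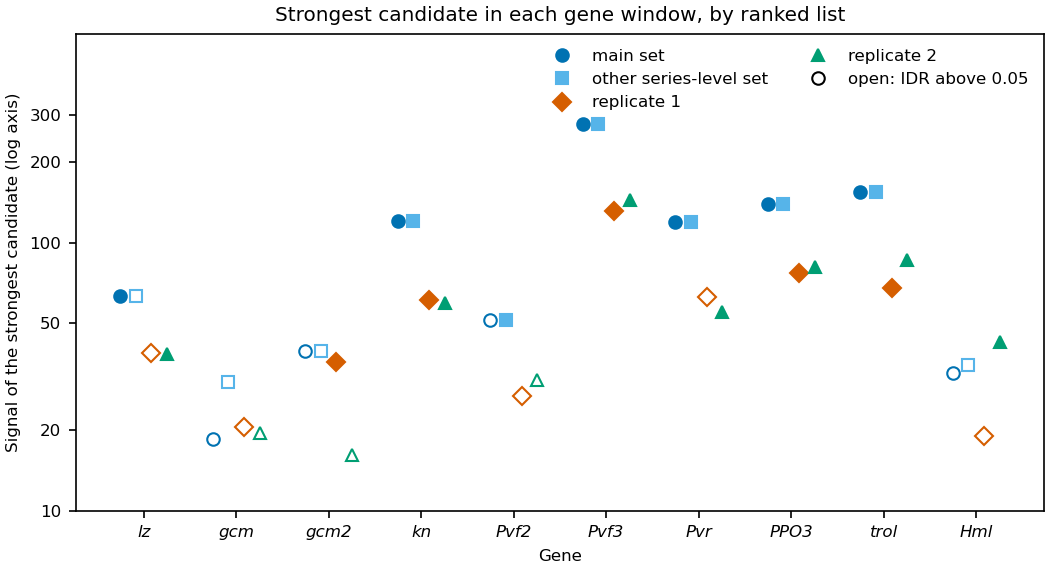
Signal of the strongest candidate in the window of each of the 10 genes (log axis), 1 symbol for each ranked list; filled symbols have an IDR of 0.05 or lower and open symbols a higher one. Pvf3 had the highest value in every list, and gcm was open in all 4.

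The 11 main-set sites had a median signal of 137, with a range of 101 to 277, against a median of 139 and quartiles of 98.2 and 225 over all main-set sites. The strongest site of each of the 5 genes had a median signal of 139, against 169 over all genes with a site. The sites were thus of middling strength for this set, and the highest, in Pvf3, stood 686th of 3846 by signal. Of the 11 sites, 9 lay in an intron of the gene and 3 lay within 1000 bp of an annotated start of any gene, against 53.6% of all main-set sites. For 5 of the 11 the nearest start of any gene was a start of the listed gene itself. The shares of all main-set sites in an intron, or nearest to a start of the gene that holds them, were not counted. The map of the 5 genes shows where the sites lie.

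**Figure D2:**
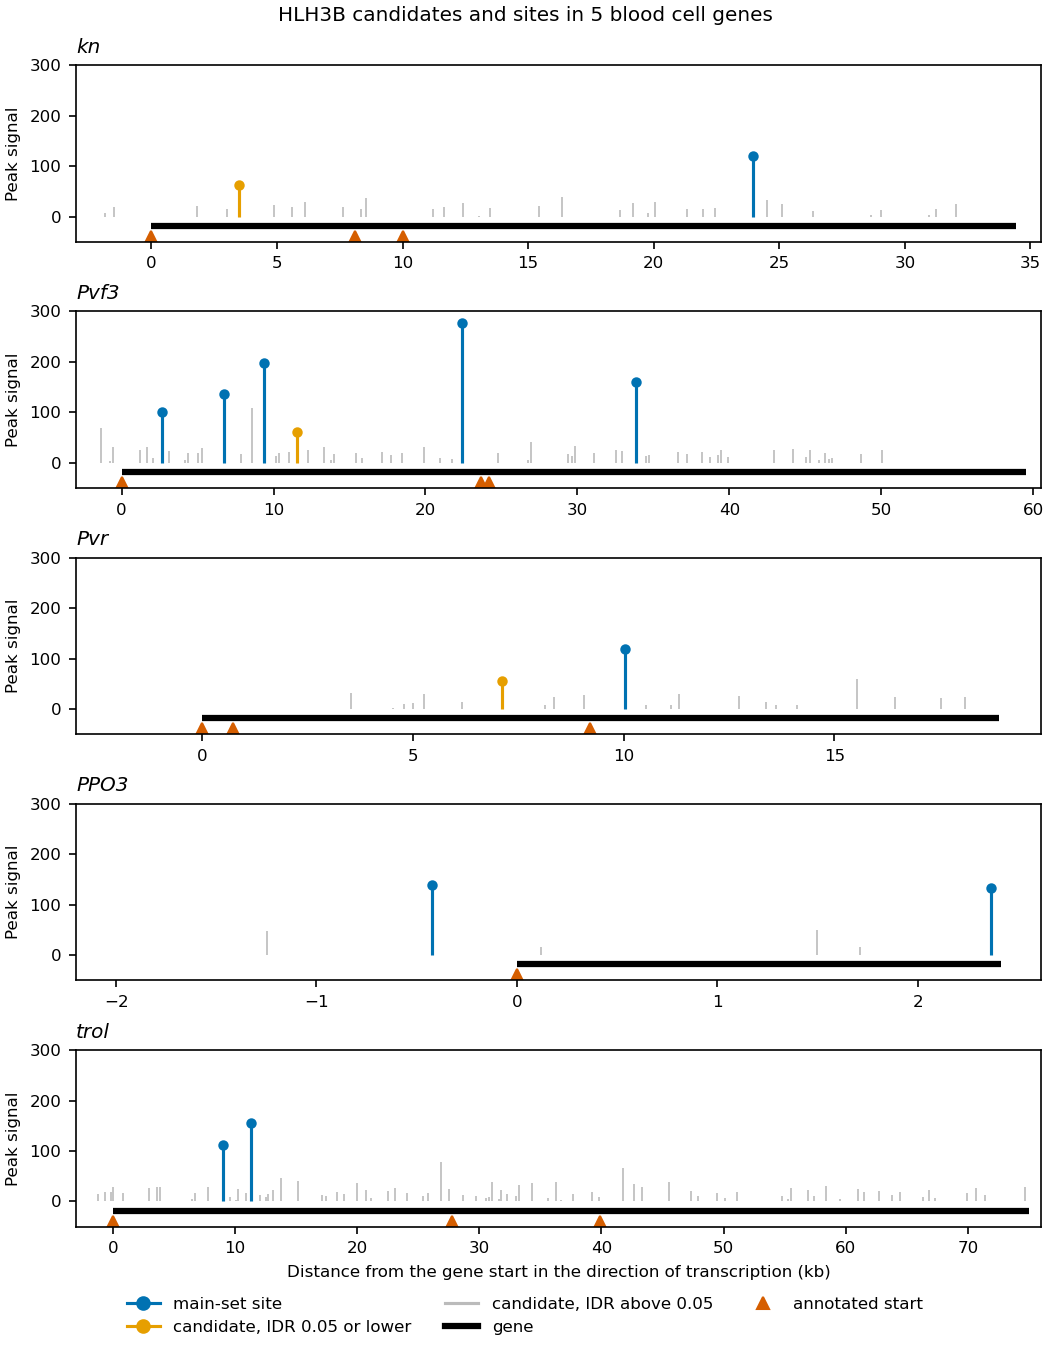
Main-set sites (blue), called candidates that missed the thresholded set (orange) and the other main-list candidates (grey) in kn, Pvf3, Pvr, PPO3 and trol, with height as peak signal and position as the distance from the gene start in kb in the direction of transcription; triangles mark annotated starts. The sites sit inside the genes and away from the gene start, except the PPO3 site 424 bp upstream.

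Among the specification factors, kn alone had a main-set site, and it had 1. The gene kn (FBgn0001319) covers 2R:14772650-14807061 on the minus strand of build dm6, with 3 annotated starts. Its site at 2R:14782923-14783258 was in an intron, 24.0 kb from the gene start and 13.9 kb from the nearest start of kn, while the nearest start of any gene, 11.8 kb away, was that of BEAF-32, which encodes an insulator protein. The signal there was 121 in the main set, 60.8 in replicate 1 and 59.5 in replicate 2. The replicates gave nearly the same value, and the place was a site in all 4 lists, with an IDR of 0.00882 in replicate 1 and 0.0025 in replicate 2. A second intronic place in kn, 3503 bp from the gene start, had a signal of 63.3 and an IDR of 0.0275 in the main candidate list. It was called in no other list, with an IDR of 0.716 in replicate 1 and 0.818 in replicate 2.

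The gene lz (FBgn0002576, X:9284649-9303636, plus strand) had no main-set site, and 2 weaker places in its window. The stronger lay in an intron 11.1 kb from the gene start, with a signal of 63.4 and an IDR of 0.0448 in the main list. At this place the replicates parted, since replicate 2 listed it as a site (signal 38.5, IDR 0.00781) and replicate 1 did not call it (27.8, IDR 0.736). The other, in a coding exon 1803 bp from the start, was called in the other series-level list at an IDR of 0.0487 and in neither replicate (21.8 and 19.9). Both lay nearest to the lz start itself. The nearest main-set sites outside the window were 82.7 kb upstream of the lz start, at su(r), and 59.4 kb downstream of it.

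The related genes gcm (FBgn0014179, 2L:9579498-9581745, minus strand) and gcm2 (FBgn0019809, 2L:9608562-9612706, plus strand) have starts 26.8 kb apart, and neither had a site in any of the 4 lists. The strongest candidate in the gcm window had a signal of 18.5 in the main list, 30.2 in the other series-level list, 20.5 in replicate 1 and 19.4 in replicate 2. All were low, with IDR values of 0.335 to 0.887. In gcm2 a place in a coding exon was called in replicate 1 alone, with a signal of 35.8 and an IDR of 0.0352, against 8.52 and 0.913 in replicate 2. That place lay 3692 bp from the gcm2 start and 912 bp upstream of the start of Trx2, a thioredoxin gene. The nearest main-set sites to the gcm start were 13.3 kb upstream (signal 84.0) and 11.6 kb downstream, at brwl (327). For gcm2 the nearest lay 9.97 kb upstream, 2280 bp from the start of CG4382, and 25.4 kb downstream, at Apoltp.

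The ligand gene Pvf3 (FBgn0085407, 2L:7098188-7157695, minus strand, 59.5 kb) carried the most sites of the 10 genes, 5 in the main set, against 5 or more in 9.97% of all genes of 30 kb or longer. It also held 7 sites in the other series-level set and 5 in each replicate. The 5 main-set sites were all intronic and spanned 31.2 kb, at 2.66, 6.74, 9.40, 22.4 and 33.8 kb from the gene start. The strongest lay at 22.4 kb (2L:7135169-7135337), with a signal of 277 in the main set, 131 in replicate 1 and 144 in replicate 2, and it was 1197 bp upstream of an internal start of Pvf3. The site at 9.40 kb had 198 in the main set, 117 in replicate 1 and 77.9 in replicate 2. That at 33.8 kb had 160, with 98.3 in replicate 1 and 62.0 in replicate 2. In these last 2 sites replicate 1 was the higher, while at 22.4 kb replicate 2 was slightly the higher.

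The sites of Pvf3 nearest to the gene start were weaker. At 6.74 kb the signal was 137 in the main set, 78.1 in replicate 1 and 61.2 in replicate 2, and at 2.66 kb it was 101, 53.8 and 48.4. Both were sites in replicate 2, and in replicate 1 both were called but missed the thresholded list, with IDR values of 0.0115 and 0.0362. For 4 of the 5 sites the nearest start was one of Pvf3. For the site at 9.40 kb it was the start of the noncoding RNA gene lncRNA:CR44612, 5996 bp away.

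A further 3 places in the Pvf3 window were called outside the main set. At 8.56 kb, 835 bp from the site at 9.40 kb, replicate 1 had a site with a signal of 82.4 and an IDR of 0.0003, and replicate 2 had 23.4 and 0.801. At 1364 bp upstream of the gene start, in the intergenic stretch, replicate 1 again had a site (48.4, IDR 0.00589) and replicate 2 did not (14.9, IDR 0.913). Both places were sites in the other series-level set. At 11.6 kb a candidate was called in both series-level lists (signal 60.6) and in neither replicate, with 29.7 in replicate 1 and 33.1 in replicate 2. The nearest start to the places at 8.56 and 11.6 kb was again that of lncRNA:CR44612, and to the upstream place that of Pvf3. The place 1364 bp upstream was the 1 called place of Pvf3 that was not inside the gene.

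The sister ligand gene Pvf2 (FBgn0031888, 2L:7069536-7084635, minus strand) starts 13.6 kb beyond the end of Pvf3 and had no site in any list. Its strongest candidate had a signal of 51.4 and an IDR of 0.0561 in the main list, just above the level at which a candidate is called, and an IDR of 0.0210 in the other series-level list. It was called in neither replicate (26.7, IDR 0.694, and 30.8, IDR 0.597). The place was intronic, 4782 bp from the Pvf2 start and 454 bp upstream of lncRNA:CR44611. The nearest main-set site upstream of the Pvf2 start, 39.2 kb away, was the Pvf3 site at 33.8 kb. The receptor gene Pvr (FBgn0032006, 2L:8220980-8239878, minus strand, 13 transcripts from 3 starts) had 1 main-set site, at 2L:8229675-8230010, in an intron 834 bp downstream of an internal start. Its signal was 119 in the main set, 62.8 in replicate 1 and 55.2 in replicate 2. The signals were alike but the calls were not, since replicate 2 listed a site (IDR 0.00035) and replicate 1 gave an IDR of 0.174. This was the 1 main-set site of the 11 that replicate 1 did not call.

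In the Pvr window 2 weaker places were called in 1 series-level list each. An intronic place 2080 bp upstream of the internal start had a signal of 56.5 and an IDR of 0.0448 in the main list, and a coding exon place 15.5 kb from the gene start had 60.4 and an IDR of 0.0195 in the other list. The latter lay 3594 bp upstream of the start of Snx6, the nearest of any gene. The first had replicate signals of 27.8 and 29.5, and the second of 38.0 and 17.3. Neither was called in a replicate.

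The short gene PPO3 (FBgn0261363, 2R:23064769-23067183, plus strand, 2.42 kb) had 2 main-set sites, against 2 or more in 2.19% of all genes under 10 kb. Both were sites in all 4 lists, and they lay 2788 bp apart, 1 before the gene and 1 at its end. The site at 2R:23064177-23064512 was intergenic, 424 bp upstream of the PPO3 start and 85 bp upstream of the start of the neighbouring gene CG9890. It had a signal of 139 in the main set, 77.3 in replicate 1 and 54.8 in replicate 2. The site at 2R:23066965-23067300 had its summit in the 3′ UTR of PPO3, 2364 bp from the PPO3 start and 63 bp upstream of the start of l(2)k09913. Its signal was 134 in the main set, 51.7 in replicate 1 and 81.1 in replicate 2, so that the higher replicate was not the same at the 2 sites. At both, the nearest start belonged to a neighbour and not to PPO3.

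The perlecan gene trol (FBgn0284408, X:2470460-2545427, minus strand, 25 transcripts) had 2 main-set sites 2282 bp apart in its introns. The stronger, at X:2533986-2534106, 11.3 kb from the gene start, had a signal of 155 in the main set, 67.6 in replicate 1 and 86.3 in replicate 2. The other, at X:2536195-2536530, 9.06 kb from the gene start, had 111, 52.9 and 56.5. Both were sites in all 4 lists, with replicate 2 the higher at each. The nearest start to both, outside single microRNA products, was that of the microRNA mir-4955 inside trol, 10.8 and 8.55 kb away, and the nearest trol start was the gene start itself. A further place, 921 bp upstream of an internal start and 26.9 kb from the gene start, was a site in replicate 1 (61.3, IDR 0.00519) and in the other series-level set, but not in replicate 2 (15.4, IDR 0.692). An intronic place 1894 bp from another internal start was called in replicate 2 alone, with a signal of 36.5 and an IDR of 0.0282, against 27.3 and 0.739 in replicate 1.

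The clotting gene Hml (FBgn0029167, 3L:13846054-13860001, plus strand) had no site in any list. A single place, 611 bp upstream of the gene start, was called in replicate 2, with a signal of 42.6 and an IDR of 0.0103, just above the 0.01 of the thresholded list. No other list had a candidate within 100 bp of it. The Hml window held 2 candidates of any rank in the main list and 1 in replicate 1, but 14 in replicate 2 and 16 in the other series-level list. This difference went beyond the gene. The 100 kb upstream of the Hml start held 0 candidates in the main list and 0 in replicate 1, where the other 9 genes had 58 to 122 and 56 to 124, and 2.43% and 2.08% of all genes were at 0. In replicate 2 the same 100 kb held 62 candidates, within the 35 to 99 of the other 9 genes, and in the other series-level list 41, below their 103 to 137. The nearest main-set site upstream of the Hml start was 332.8 kb away. On the downstream side the nearest was much closer, 16.5 kb from the Hml start. It lay past the end of Hml, in an intron of CG8745, with a signal of 128. The part of the upstream stretch without candidates in the absence of a main-set site at Hml was not tested.

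**Figure D3:**
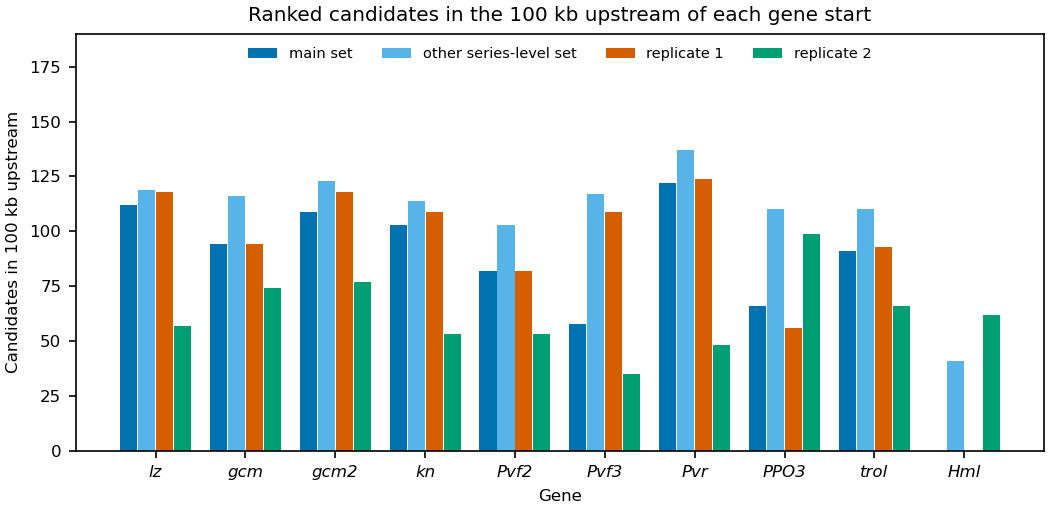
Number of ranked candidates of any IDR in the 100 kb upstream of each gene start, 1 bar for each ranked list. Hml has no bar for the main set and for replicate 1, and has 62 candidates in replicate 2.

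Over the 10 gene windows there were 24 places with a site or a called candidate in at least 1 list. Of these, 10 were called in both replicates, 4 in replicate 1 alone, 4 in replicate 2 alone and 6 in neither. The same split over all gene windows was not counted, so it is not known whether these genes differ from others. All 10 that both replicates called were main-set sites, but the main set itself joins the replicates, so this is no separate support for them. Of the 11 main-set sites, 8 had a site in both replicates, against 61.6% of all main-set sites, and replicate 2 had a site at all 11. The share of all main-set sites with a site in replicate 2 was not counted. The ratio of the signal in replicate 1 to that in replicate 2 ran from 0.637 at the 3′ UTR of PPO3 to 1.59 at 33.8 kb in Pvf3. Over 3602 main-set sites with a candidate in both replicates, the median ratio was 1.04 and the quartiles 0.838 and 1.30. With 2 replicates the spread at a single site rests on a single pair of values, and no site was tested for a difference.

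**Figure D4:**
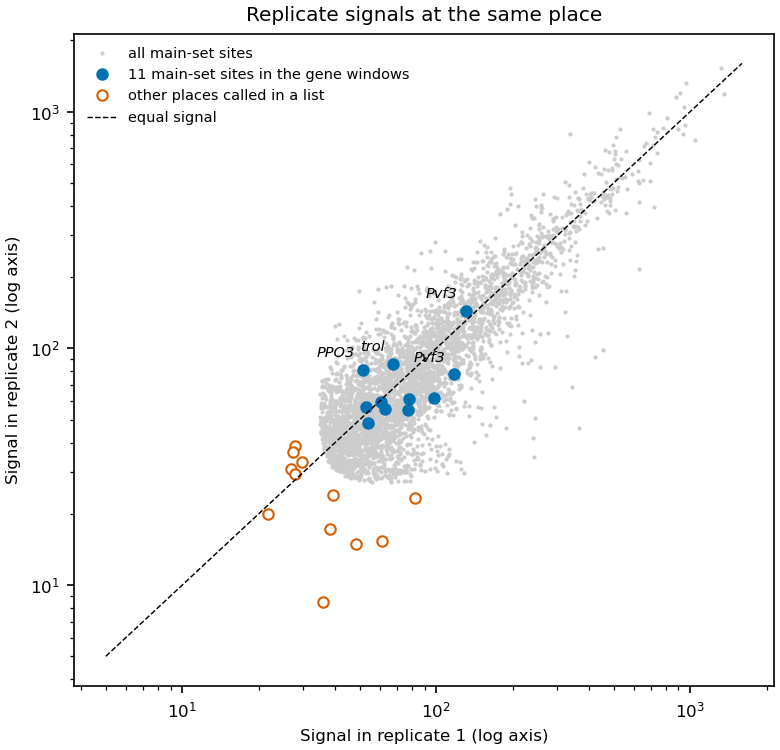
Peak signal at the same place in replicate 1 and replicate 2 (both log axes) for all main-set sites (grey), the 11 in the gene windows (blue) and the other called places of the 10 genes with a candidate in both replicates (orange); the dashed line marks equal signal. The 11 sites lie along the line at middle strength, and the 4 places called in replicate 1 alone lie below it.

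Within 50 bp of the summit, 4 of the 11 main-set sites held an E-box CANNTG, against 33.2% of all main-set sites. Both strands were searched, and motifs could overlap. The words included CATATG in kn, CAATTG at 2.66 kb in Pvf3, and a CAATTG with a CAACTG upstream of PPO3. The word CAGATG, an E-box that Tal1-type proteins bind in vertebrates, was at 0 of the 11 and at 2.81% of all main-set sites. A GATA motif, in the forms given with the sequences, was at 2 of the 11, both in Pvf3, and at 22.4% of all. In the Pvf3 sequence at 9.40 kb printed above the GATA words began 46 bp before and 14 bp after the summit, and at 2.66 kb the E-box began 43 bp and the GATA word 30 bp before it. With 100 bp on each side of the summit the counts were 8 for the E-box, 3 for CAGATG and 4 for GATA, against 59.2%, 6.29% and 36.8% of all sites. The G and C content of the 101 bp had a median of 31.7% at the 11 sites and of 30.7% at all main-set sites.

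Other genes of blood cell development and function were described from a list of 42 in 4 roles. Of these, 12 had a main-set site, 15 a site in the other series-level set, 12 in replicate 1 and 13 in replicate 2, to be read against the shares of all genes above. By role, a main-set site was found at 7 of 12 specification factors, 3 of 9 signals, 2 of 14 hemocyte products and 0 of 7 surface receptors. The roles differ in gene length, since 6 of the 7 surface receptor genes and 10 of the 14 product genes are under 10 kb, and the 3 listed genes of 30 kb or longer (ush, N and Antp) are all specification factors. By length, 3 of 26 listed genes under 10 kb had a main-set site, 6 of 13 from 10 to 30 kb and 3 of 3 at 30 kb or longer, beside 16.7%, 45.0% and 55.1% of all genes. The difference between roles was not tested. The 12 strongest sites had a median signal of 191, and 10 of them were nearest to a start of the gene itself. All of these 12 genes but srp had a site somewhere in their window in both replicates. At the laminin gene LanB2 the replicate 1 site was at another place. The place of its main-set site was not called in replicate 1 (signal 35.2, IDR 0.432).

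Among the specification factors with a site, srp encodes the GATA factor of early blood cells. Its site was 1498 bp upstream of its start, with a signal of 81.5 in the main set, 44.2 in replicate 1 and 32.6 in replicate 2, called in both replicates but a site in neither. The strongest main-set site was at tin, the homeobox factor of heart and other dorsal mesoderm, 194 bp upstream of its start, at 608. It was followed by the zinc-finger factor gene zfh1 (399), the receptor gene N, which acts in crystal cell choice (394), the gene of the GATA cofactor ush (349), the homeobox gene Antp (222) and Bgb, which encodes a partner of RUNX factors (161). This order covers main-set sites only. The ush window also held a main-list candidate at 2484, above the tin site, that is no main-set site. The Bgb site lay 154 bp upstream of its start, with 51.7 in replicate 1 and 110 in replicate 2, while lz itself had none in the main set. Most of these factors also act in other embryonic tissues, and the tissue in which their sites were occupied is not known.

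Among the signals, Pvf1, which encodes another ligand of Pvr, had a site in its intron 1889 bp from its start, with a signal of 108 in the main set, 65.7 in replicate 1 and 43.3 in replicate 2. The JAK pathway transcription factor gene Stat92E had one at 256, with 142 and 118 in the replicates. The adenosine deaminase gene Adgf-A had one at 136, with 59.5 and 61.6, in an intron shared with Adgf-A2 and 241 bp upstream of CG32182. Among the products, LanA (152) and LanB2 (80.9), which encode laminin chains of basement membranes as trol encodes perlecan, had a site each. The prophenoloxidase genes PPO1 and PPO2 of crystal cells had no site and no called candidate in any list. Their strongest main-list signals were 27.1 and 18.7, below those of PPO3 given above. Both sites in the PPO3 window lay nearest to the start of a neighbouring gene. All of these genes are under 10 kb, a length at which 16.7% of all genes had a main-set site. The surface receptor genes NimC1, eater and He, used as markers of plasmatocytes or of all hemocytes, had no main-list candidate at all, as was so for Su(H) and Glt. NimC1, eater and He are short genes (3.61, 3.81 and 0.852 kb). Of the other surface receptor genes, NimC4 held a called main-list candidate (74.7). The strongest main-list candidates of crq (70.9), drpr (55.8) and Sr-CI (16.3) were not called in that list. The share of all genes without a main-list candidate was not counted.

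**Figure D5:**
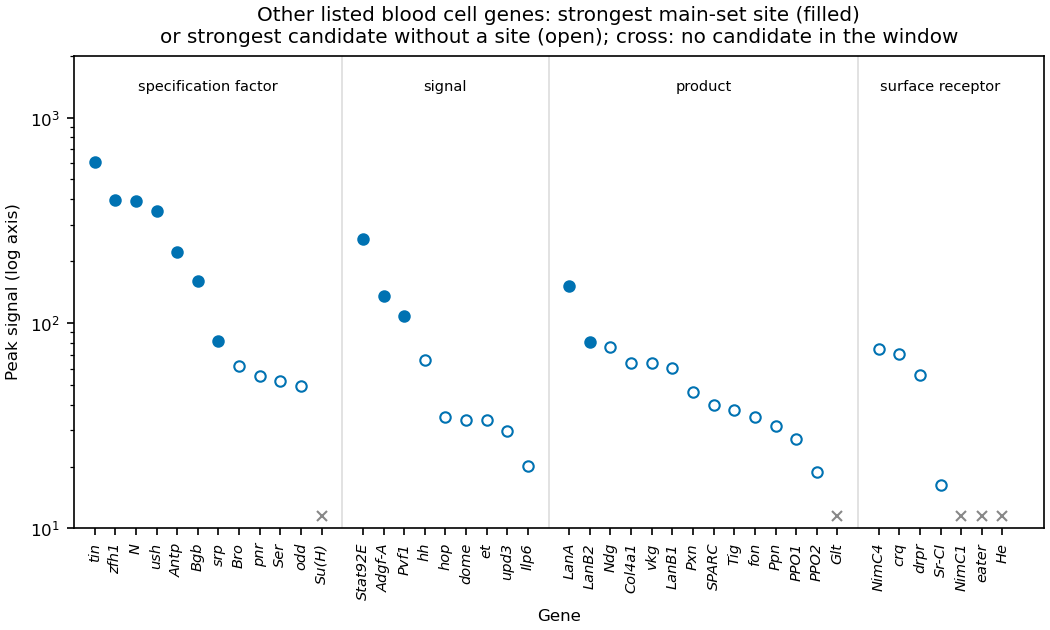
Signal (log axis) of the strongest main-set site (filled) or, where a gene had none, of its strongest main-list candidate (open) for 42 other blood cell genes in 4 roles; a cross marks a gene with no candidate. Filled symbols mark 7 of 12 specification factors and 0 of 7 surface receptors, roles that also differ in gene length. The ush candidate at 2484, which is no main-set site, is not drawn.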

How the data were processed

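Processing was done by the authors up to peak lists in narrowPeak layout on assembly dm6, per the labels. The peak signal is the authors' value per peak, and the deposited score is a whole number that equals a rescaled IDR. The −log10 IDR of each candidate was deposited in the ranked lists and was used to call candidates. The names of the aligner and the peak caller, not given in the sources used here, could not be recorded. Deposited notes say that thresholded lists used 1 further file that the ranked lists did not. In the ranked lists of the series-level sets, 16 columns of per-sample values that the labels tie to no replicate were not used, and replicate values came from each replicate's own lists. The lists hold no read counts, so depth is unknown.

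Genes and starts came from Ensembl release 115 (BDGP6.54, transposable elements left out) on 6 arms, all of whose lengths hold every peak. Summits were counted in the gene body and 2000 bp upstream, and each place took the nearest start of any gene. Sequence came from RefSeq Release 6, and motifs were searched within 50 bp of summits on both strands. The sequence of 1 Pvf3 site is not reported here. The design holds 1 group of 2 replicates, so counts are described beside the share over all genes or sites, with no test. The genes named were the 10 members, every gene with the nearest start to a main-set site or called candidate, and the listed other genes with a main-set site; other named genes were chosen after their values were seen. The members and lists were chosen with earlier results of these data known. Alternatives covered other lists, windows, overlaps, thresholds and gene assignment. On simulated data the window count found 200 of 200 genes given a summit at a known place, which checks the counting only. Python 3.11.15, numpy 2.4.6, pandas 2.3.3 and matplotlib 3.10.9 were used.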

Additional observations from a re-analysis of the deposited data

How the results depend on the processing

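Over 8 results and 51 alternatives, 44 counts stayed within 1.5 times the value reported and 7 did not. With only those main-set sites whose signal was above the set's median, sites remained at 2 of the 10 genes, Pvf3 and trol, with 4 sites in the windows, 2 of them nearest to a start of the listed gene. When a site was given only to the gene of its nearest start, the count of genes was 2, Pvf3 and Pvr, since sites in kn, PPO3 and trol lay nearer to other starts. With 100 bp on each side of the summit in place of 50, the E-box count was 8, the CAGATG count 3 and the GATA count 4, in a window that holds more bases. The count of the 42 other genes with a main-set site also varied with the window, up to the edge of 1.5 times. It was 12 as reported, 8 with the gene body only and 18 with 5000 bp upstream. It was 13 when a site was given only to its nearest start. Taking each replicate's list alone in turn gave 4 to 6 genes with a site, 11 to 12 sites, 4 to 6 of them nearest to the gene's own start, 14 called candidates with either, 3 to 4 sites with an E-box, 0 with CAGATG, 2 with GATA, and 12 to 13 of the 42 other genes. Leaving out the starts of single microRNA products, an alternative chosen after seeing the data, changed no count. No paired analysis was possible because there is 1 group, and no test was made. Depth is unknown, so the absence of a site at gcm or Hml in any list says only that none was listed. The same holds for the absence of a main-set site at the surface receptor genes.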

Other observations

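The laminin gene LanB1 differed between the replicates, with 2 sites and 6 called candidates in replicate 1 (strongest signal 63.8) and none of either in replicate 2 (strongest signal 18.3). The collagen genes Col4a1 and vkg, a pair with adjoining windows, shared a called main-list candidate with a signal of 63.6, which was no site in the main set. Col4a1 had a site in the other series-level set and in replicate 2 (strongest signal 45.7). In those lists vkg had no site and no called candidate. In ush the main candidate list held a peak with a signal of 2484 that is no main-set site, and the strongest candidates of its window in the replicate lists had 1263 and 1245, while the strongest main-set site of ush had 349. The receptor gene NimC4 had a site in the other series-level set and in replicate 2 (44.3) and none in the main set or in replicate 1 (30.7).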
